A study of Caenorhabditis elegans with 3 samples.

Results

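The genes described here are the major sperm protein genes of the nematode Caenorhabditis elegans (msp) and 4 sets of small genes named with them: the MSP-domain genes (msd), the sperm-specific families ssp and sss, and the nematode-specific peptide family nspd. Members were the probes whose platform annotation gave a single gene symbol of these names. This gave 57 probes for 55 genes, of 19264 features (a gene, or a probe with no gene name) with a value on each of the 3 arrays. None of the 55 genes lacked a value on any array. There were 30 msp, 8 nspd, 11 ssp, 2 sss and 4 msd genes. Each of 3 arrays compared, in 2 channels, a mixed wild-type reference RNA with the RNA of hermaphrodites in late young adulthood, from preparation 1 on array 1, preparation 2 on array 2 and preparation 3 on array 3. The labels give neither genotype nor age in hours for the adults, and they leave out what the reference mixed and whether preparations were separate cultures, so that p-values cover only how far these preparations differ, perhaps for technical reasons. The deposited values are log2 ratios, and a ratio above 0 was read as likely higher in the adult, since the adult RNA is in channel 2. In the opposite direction every "higher" would read "lower".

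Major sperm protein is the main cytoskeletal protein of nematode sperm. Its filaments, in place of actin, move the crawling sperm cell, and the protein released from sperm acts as a signal that starts oocyte maturation and contraction of the gonadal sheath. In the hermaphrodite, sperm are made in the last larval stage and then stored, and the adult germline turns to oocytes. The msp genes form a large set of near-identical copies, so a probe for one gene can take up RNA of another. The values of single msp genes are therefore uncertain and are not independent of each other.

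Of the 30 msp genes, 29 lay above the reference on every array, msp-38 being the exception, with array 3 highest and array 2 lowest for most of them. By limma with Benjamini-Hochberg adjustment over all 19264 features, 43 of the 55 members were higher in the adult at an adjusted p under 0.05 and 0 were lower, with 0 lower at an unadjusted p under 0.05 as well. Of all features tested, 38.4% passed in either direction, 19.6% higher and 18.8% lower. In the msp family, 28 of 30 genes were higher, at adjusted p from 0.00171 to 0.0464. The median of their mean log2 ratios was 1.14, a ratio of 2.21, against 0.04 over all genes tested. Of the 30, 20 had a mean log2 ratio of at least 1, as had 8.37% of all genes. The count of 28 depends on the processing. It became 27 with median centring or equal spread of the arrays, stayed 28 with quantile normalization and fell to 0 without limma's moderation. Without moderation 0 of all 19264 features passed in either direction, so that 0 is not particular to the msp genes. A list of 34 measured housekeeping genes of high abundance had array medians of 0.99, 0.40 and 1.05, close to the msp medians on arrays 1 and 2 and below the msp median on array 3. With each array centred on that list, which moved the median of all genes to −0.78, 3 msp genes were higher and 1 lower. In that fit 588 of all 19264 features were higher and 12104 lower. This is the background for every count with housekeeping centring given below. The part of such a shift in the msp values was not tested beyond this. More sperm and more RNA per sperm cell cannot be told apart in such RNA, nor can a change in the adult from a difference in what the reference mixed.

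**Figure D1:**
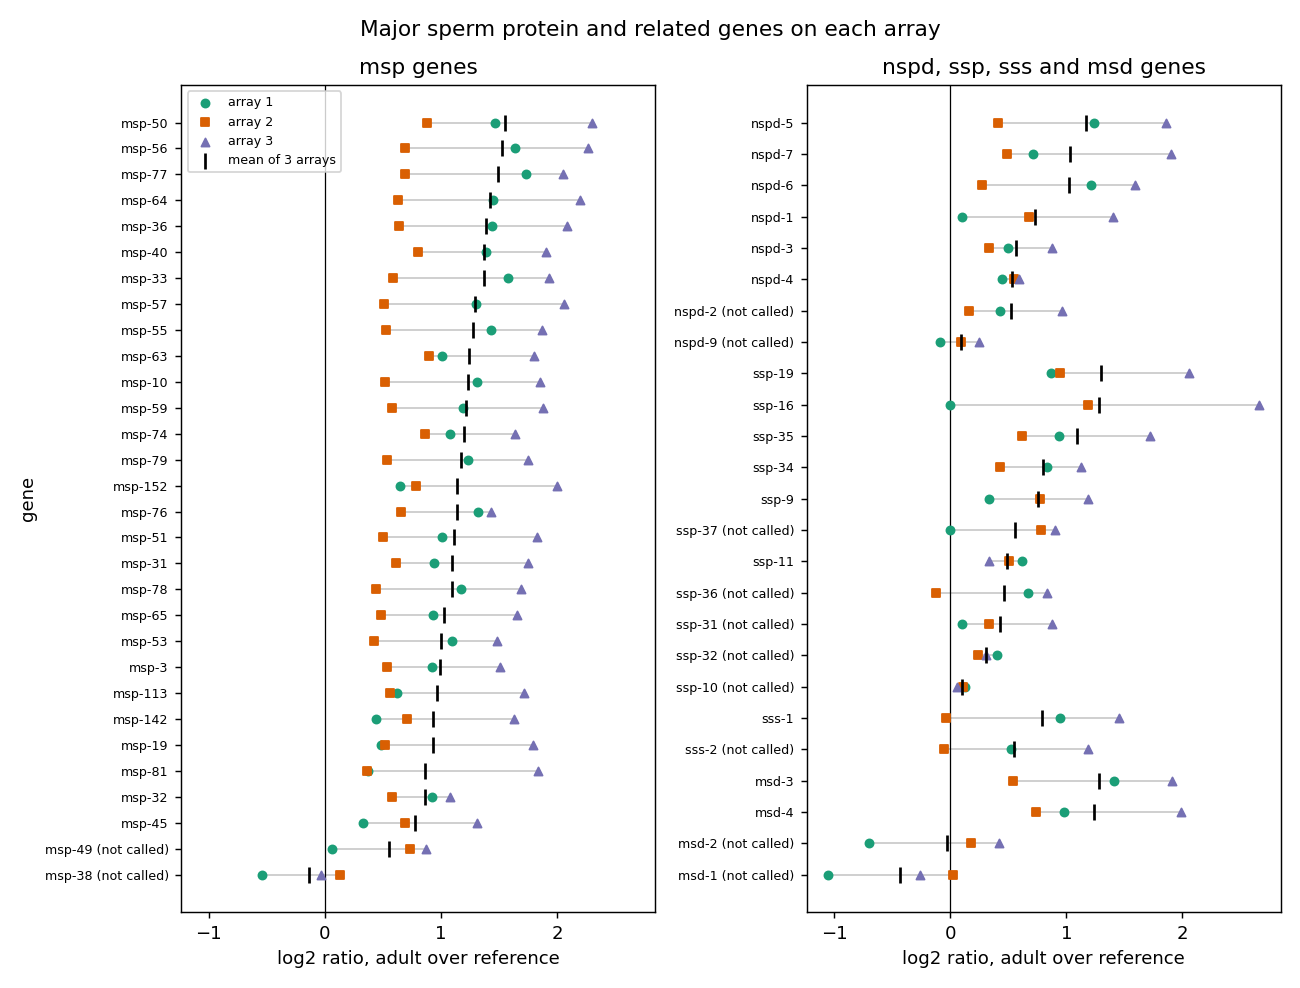
The log2 ratio (adult over reference) of each of the 55 genes on array 1 (circles), array 2 (squares) and array 3 (triangles), with the mean as a black tick, msp genes on the left and the other families on the right. Of the msp genes, 24 have array 2 lowest and array 3 highest, and msp-38 and msp-49 are marked as not past the threshold.

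The 4 highest msp genes were msp-50, msp-56, msp-77 and msp-64. msp-50 had log2 ratios of 1.47, 0.88 and 2.30 on arrays 1, 2 and 3. Their mean was 1.55 ± 0.71 (SD, n = 3), a 2.93-fold ratio with a moderated 95% interval of 0.97 to 2.14 and a limma adjusted p of 0.00194. All 3 arrays lay above 0, and array 3 lay far above array 2. msp-56 had log2 ratios of 1.64, 0.69 and 2.27, with a mean of 1.53 ± 0.79 and a limma adjusted p of 0.00288. msp-77 had 1.73, 0.69 and 2.05, with a mean of 1.49 ± 0.71. msp-64 had 1.45, 0.63 and 2.20, with a mean of 1.42 ± 0.79. These 4 genes shared the same order of arrays, and each lay under 0.9 on array 2. Since their intervals overlapped widely, the order among them is not separated from the spread between arrays.

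The lowest msp genes were msp-38, msp-49 and msp-45, followed by msp-81 and msp-32, whose means were equal to 2 decimals. msp-38 had log2 ratios of −0.54, 0.13 and −0.03. Its mean was −0.14 ± 0.35, with a 95% interval of −0.56 to 0.27 and a limma adjusted p of 0.57, and it was the 1 msp gene with arrays on both sides of 0. msp-49 had 0.06, 0.73 and 0.87, with a mean of 0.55 ± 0.43 and a limma adjusted p of 0.0551. It missed the threshold, and passed it without array 1. msp-45 had 0.33, 0.69 and 1.31, with a mean of 0.78 ± 0.49, and array 1 was lowest in it as in msp-38 and msp-49. msp-81 had 0.37, 0.36 and 1.84. Its mean of 0.86 ± 0.86, the largest SD in the family, rested on array 3, and its limma adjusted p of 0.0464 was lost when each array was centred on its median. msp-32 had 0.92, 0.58 and 1.08, and its mean of 0.86 ± 0.25 had the smallest SD in the family. The next smallest SDs were those of msp-38 and of msp-74, which had 1.08, 0.86 and 1.64 and a mean of 1.20 ± 0.40.

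The msp genes moved between arrays as a block. The family median was 1.09, 0.59 and 1.80 on arrays 1, 2 and 3, where the medians of all genes were 0.06, 0.01 and 0.01. On array 2 the 30 genes lay between 0.13 and 0.90, with quartiles of 0.52 and 0.69. On array 3 they lay between −0.03 and 2.30, with quartiles of 1.64 and 1.92, and on array 1 between −0.54 and 1.73, with quartiles of 0.72 and 1.37. Between genes, the SD was 0.51, 0.16 and 0.46 on arrays 1, 2 and 3, against 0.77, 0.87 and 0.90 over all genes. Without msp-38 it was 0.43, 0.14 and 0.32. The msp genes were thus much more alike on array 2 than on the other arrays. No msp gene exceeded a log2 ratio of 1 on array 2, 18 did on array 1, and 28 did on array 3.

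Array 3 lay above array 2 in 29 of the 30 msp genes, by a median log2 difference of 1.21. It did so by over 1 in 21 of them (70%), as in 1.61% of all genes tested. The order array 2, array 1, array 3 from low to high was found in 24 msp genes (80%) and in 11.5% of all genes. Of the 34 housekeeping genes, 15 (44.1%) had this order, and array 3 exceeded array 2 by over 1 in 2 (5.88%). The remaining 6 msp genes had array 1 lowest, 5 of them with array 3 highest. As a result the SD of a gene between arrays had a median of 0.64 in the family against 0.27 over all genes. With 1 sample of each preparation, no test between arrays was possible, and array and preparation cannot be told apart. Across the 30 genes, Pearson's r was 0.77 between arrays 1 and 3, 0.457 between 2 and 3, and 0.369 between 1 and 2. Spearman's rho was 0.716, 0.231 and 0.227 for the same pairs. These correlations across genes describe the family only, since the probes may share signal and every array carries the same reference.

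**Figure D2:**
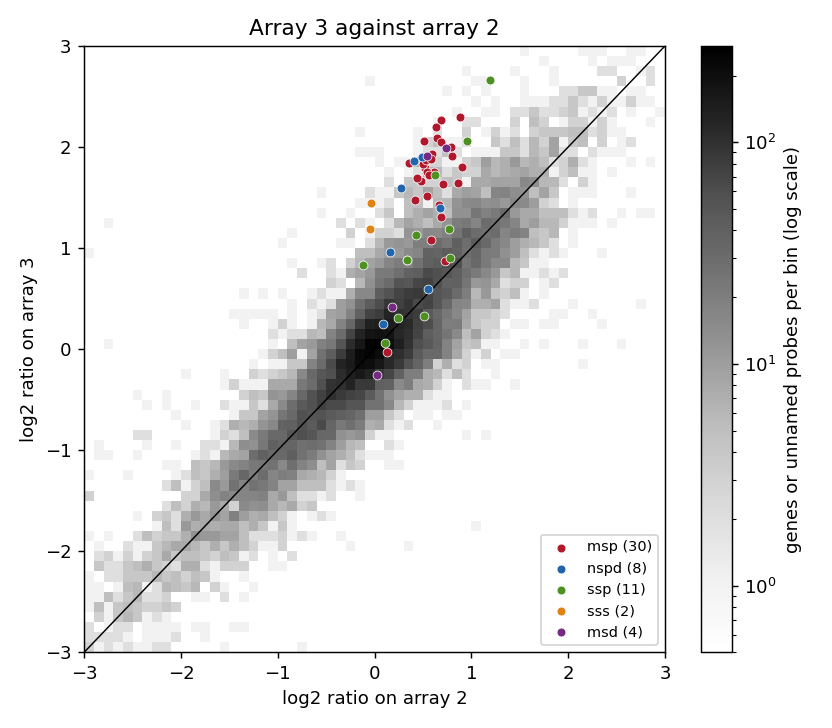
The log2 ratio on array 3 (vertical) against array 2 (horizontal) for all genes in grey, darker where more genes fall in a bin (log scale), and for the 55 members in colour by family. Most msp genes form a tight group above the line of equal values, with array 3 higher than array 2 by a median of 1.21, while msp-38 lies near 0 on both.

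The nspd genes encode short peptides of a family found in nematodes. Of 8 measured, 6 were higher than the reference and 0 lower. Their median of 0.65 was below the msp median of 1.14. All 8 means, from 0.09 to 1.17, lay within the range of the msp means, −0.14 to 1.55, whose lower end is msp-38. The highest were nspd-5, nspd-7 and nspd-6. Without array 3, 2 of 8 were higher, and with housekeeping centring 0 were higher and 1 lower. In the fit without array 3, 2676 of all 19264 features were higher and 2676 lower, against 3769 and 3624 with all 3 arrays. This is the background for every count without array 3 given below. nspd-5 had log2 ratios of 1.24, 0.41 and 1.86, with a mean of 1.17 ± 0.73 and a limma adjusted p of 0.00781. nspd-7 had 0.71, 0.49 and 1.90, with a mean of 1.03 ± 0.76. nspd-6 had 1.21, 0.27 and 1.59, with a mean of 1.02 ± 0.68. These 3 genes followed the msp pattern, with array 2 lowest and array 3 highest. nspd-1 had 0.10, 0.68 and 1.40, with array 1 lowest, and a mean of 0.73 ± 0.65. nspd-3 had 0.50, 0.33 and 0.88, with a mean of 0.57 ± 0.28. nspd-4 had 0.45, 0.55 and 0.59, a mean of 0.53 ± 0.07 and the smallest SD in the family. All 3 arrays lay above 0 in each of these genes. nspd-2 had 0.43, 0.16 and 0.96, with a mean of 0.52 ± 0.41 and a limma adjusted p of 0.0647. nspd-9 had −0.09, 0.09 and 0.25, with a mean of 0.09 ± 0.17 and a limma adjusted p of 0.707, and was the 1 nspd gene with arrays on both sides of 0.

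Of the 11 ssp genes, named for their expression in sperm, 6 were higher and 0 lower, and the family median was 0.56. The highest were ssp-19 and ssp-16. ssp-19 had log2 ratios of 0.87, 0.95 and 2.06, with a mean of 1.30 ± 0.67 and a limma adjusted p of 0.00371. ssp-16 had 0.00, 1.19 and 2.66, with a mean of 1.28 ± 1.33 and a limma adjusted p of 0.0383. It had the highest single value of all 55 members, on array 3, and also the largest SD, and it did not pass without array 3. ssp-35 had 0.94, 0.62 and 1.72, with a mean of 1.09 ± 0.57, and ssp-34 had 0.83, 0.43 and 1.13, with a mean of 0.80 ± 0.35. Both followed the msp order of arrays. ssp-9 had 0.33, 0.77 and 1.19, with a mean of 0.76 ± 0.43. ssp-11 had 0.62, 0.51 and 0.33, falling on array 3 where the msp genes were highest, with a mean of 0.49 ± 0.15 and a limma adjusted p of 0.0389, which no fit that left out an array kept under the threshold.

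The other 5 ssp genes did not pass. ssp-10 had 0.13, 0.11 and 0.06, with a mean of 0.10 ± 0.04, the smallest SD of all members. ssp-32 had 0.40, 0.24 and 0.31, with a mean of 0.31 ± 0.08. Neither followed the array order of most msp genes. ssp-36 had 0.67, −0.12 and 0.83, with a mean of 0.46 ± 0.51. ssp-31 and ssp-37 were the 2 members with more than 1 probe. For ssp-31 the averages were 0.10, 0.33 and 0.88, and the probes differed most on array 1, at −0.36 and 0.55. For ssp-37 the averages were 0.00, 0.78 and 0.90, from 0.16 and −0.15 on array 1, 1.00 and 0.55 on array 2 and 1.07 and 0.73 on array 3. Its first probe passed by itself at a limma adjusted p of 0.0237 and the second did not, at 0.185. The array order of the ssp family was mixed: 5 genes had the order 1, 2, 3 from low to high, 3 the order of most msp genes, and 3 others had array 1 highest.

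Of the 2 sss genes, sss-1 had log2 ratios of 0.95, −0.04 and 1.45, with a mean of 0.79 ± 0.76 and a limma adjusted p of 0.047, which did not hold when each array was centred on its median. sss-2, which RefSeq lists as a pseudogene, had 0.52, −0.05 and 1.19, with a mean of 0.55 ± 0.62 and a limma adjusted p of 0.0974. Both lay just below 0 on array 2 and above it on the other arrays, with the array order of most msp genes.

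The msd genes encode small proteins with the MSP domain, and they split. msd-3 had log2 ratios of 1.41, 0.54 and 1.91, with a mean of 1.28 ± 0.69 and a limma adjusted p of 0.00437. msd-4 had 0.98, 0.74 and 1.99, with a mean of 1.24 ± 0.66 and a limma adjusted p of 0.0045. These values fell inside the range of the msp genes on each array. msd-1 had −1.05, 0.02 and −0.26, with a mean of −0.43 ± 0.55 and a limma adjusted p of 0.16. msd-2 had −0.70, 0.18 and 0.42, with a mean of −0.03 ± 0.59 and a limma adjusted p of 0.93. Neither passed, and on array 1 both lay below 0, as msp-38 did. Over the ssp, sss and msd genes together, 9 of 17 were higher, and 4 without array 3. With housekeeping centring 0 of the 17 were higher and 3 lower.

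To ask which members stood apart from the msp family, the msp median of each array was subtracted from every gene and the limma fit over all genes was repeated, which removes the shift the msp genes share. Of the 55 members, 5 lay below the msp median at an adjusted p under 0.05 and 0 above it, with 0 above at an unadjusted p under 0.05. Of all features, 71.1% passed in this fit, 70.2% below and 0.841% above. The 5 were msd-1 at −1.59 ± 0.88, msp-38 at −1.30 ± 0.74, msd-2 at −1.19 ± 0.71, nspd-9 at −1.07 ± 0.53 and ssp-10 at −1.06 ± 0.63 (SD, n = 3). Their limma adjusted p were 0.000402, 0.0036, 0.00754, 0.0151 and 0.0162. Each lay below the msp median on all 3 arrays, and nearest to it on array 2, where the subtracted median was itself lowest. Without array 1 the count was 0, with 1 member at an unadjusted p under 0.05, without array 2 it was 10, and with robust moderation it was 3.

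Of the 30 msp genes, 28 lay within 0.4 of the family median, the exceptions being msp-38 and msp-49. This subtraction lowered the SD between arrays of an msp gene from a median of 0.64 to 0.20, but raised it in the ssp family, from 0.43 to 0.50. The msp genes themselves set the subtracted median, so their lower SD and their closeness to it are in part built in. The fit pools the spread of all genes, most of which do not share the msp shift, so its 95% interval reached 0.80 to either side for every member and smaller offsets could not pass. msp-50, highest at 0.39 ± 0.11, lay above the msp median on all 3 arrays, at 0.38, 0.29 and 0.51, and did not pass (limma adjusted p = 0.37). msp-65 kept nearest to a constant distance, at −0.16, −0.11 and −0.13. The msp median exceeded the nspd median by 0.62, 0.22 and 0.61 on arrays 1, 2 and 3, and the ssp median by 0.69, 0.07 and 0.90. Both differences held on all 3 arrays and were not tested, since they are medians over the chosen genes.

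**Figure D3:**
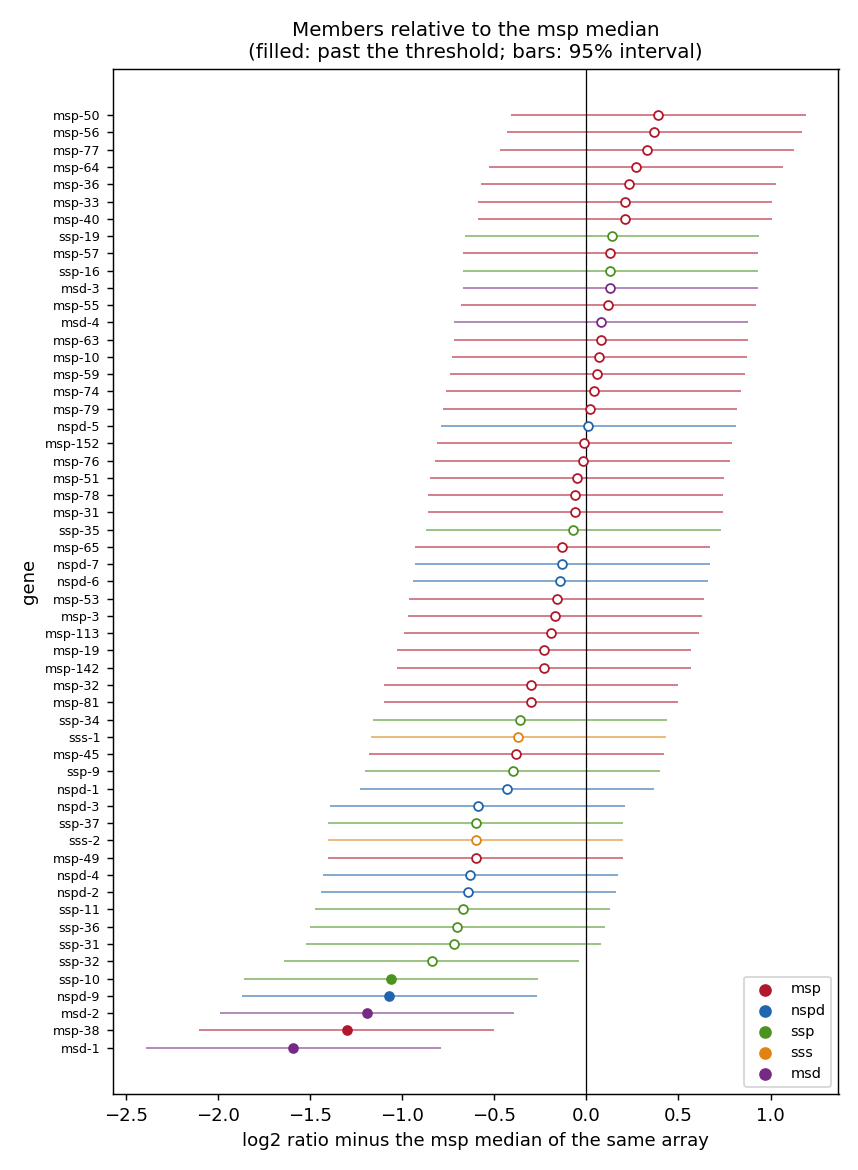
The mean log2 ratio of each member after subtracting the msp median of the same array, with the moderated 95% interval as a bar (0.80 to either side), coloured by family and filled where the adjusted p was under 0.05. The 5 filled points, all below 0, are ssp-10, nspd-9, msd-2, msp-38 and msd-1.

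In the RefSeq annotation of the assembly WBcel235, used here for names and gene order, the msp genes lie on chromosomes II and IV. RefSeq lists 35 msp genes, 4 of them pseudogenes, of which 30 were measured, 8 of 12 nspd, 11 of 13 ssp, both sss and all 4 msd genes. The 13 msp genes of chromosome II had array medians of 0.94, 0.71 and 1.75, and the 17 of chromosome IV of 1.19, 0.52 and 1.83. On each array the ranges of these groups overlapped, and 12 of 13 and 16 of 17 were higher. Members separated by at most 10 other protein-coding genes were joined into runs. This gave 13 runs that hold 43 members, 27 of them msp genes, and left 12 members alone.

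Neighbours in a run could differ widely. One run on chromosome IV holds, in order, msp-81, msp-10, msp-56, nspd-2 and ssp-10, whose means ran from 0.10 for ssp-10 to 1.53 for msp-56. Another holds sss-1, msp-77 and ssp-32 with no other protein-coding gene between them, at 0.79, 1.49 and 0.31. In the run of the msd genes, msd-1 and msd-2 lay at −0.43 and −0.03 and msd-3 at 1.28. The run of msp-33, msp-32, msp-31 and msp-152 on chromosome II was more even, at 0.86 to 1.37.

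The 60 other measured genes that lie between members of a run were called in either direction at a share near the background, but more were higher than lower. Of these, 17 were higher and 6 lower (38.3% called, against 38.4% of all features, 19.6% higher and 18.8% lower). Their median was 0.28, against 0.04 over all genes, and by array 0.20, 0.33 and 0.34. Of the 60, 56.7% lay above 0 on every array, against 33.7% of all genes. The order array 2, array 1, array 3 was found in 12 of the 60 (20%), against 11.5% of all genes, and srb-13, with 1.5, 0.61 and 2.02, and gipc-2, with 1.24, 0.43 and 1.90, had values like those of the msp genes. Array 3 lay above array 2 by over 1 in 4 of them, 6.67%. The 4 highest (picked by value, as was the lowest) were the sperm-specific family gene ssq-2 at 1.53 ± 0.71, the chemoreceptor gene srb-13 at 1.37 ± 0.71, gipc-2 at 1.19 ± 0.74 and spch-3, a sperm chromatin protein gene, at 1.18 ± 0.89. The lowest was the neuropeptide-like gene nlp-47, at −2.28 ± 0.24.

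**Figure D4:**
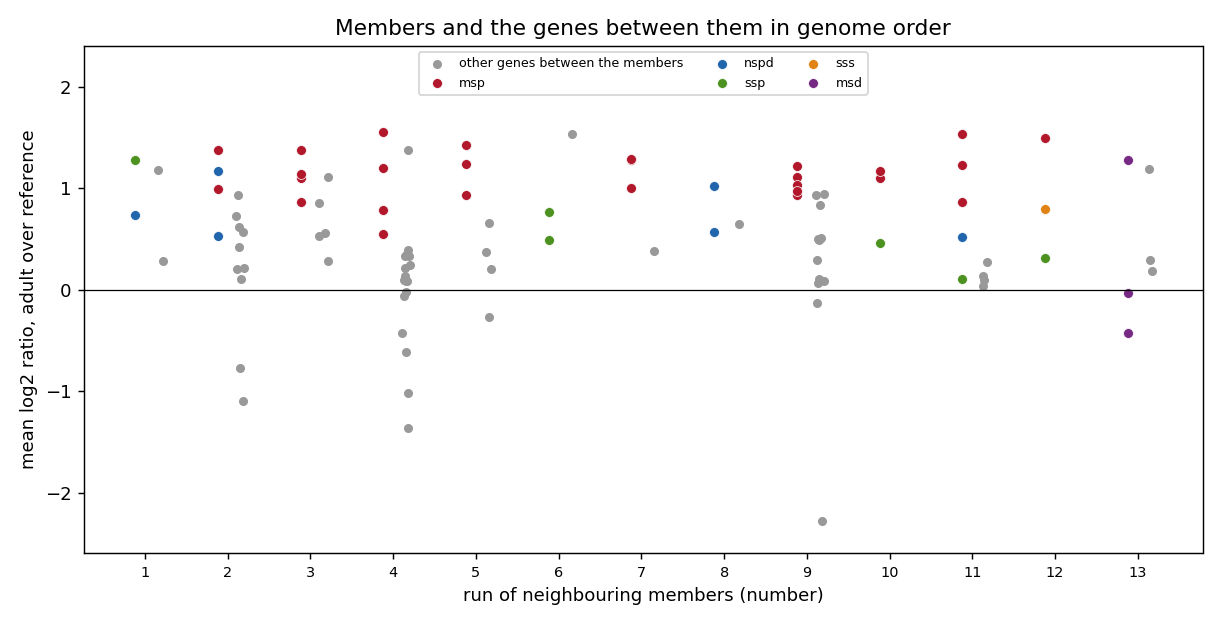
The mean log2 ratio (adult over reference) of members in each of the 13 runs of neighbouring members, coloured by family, beside the other measured genes that lie between them in grey. The msp genes of a run sit between 0.55 and 1.55, while the 60 grey genes reach from −2.28 to 1.53.

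Among other genes of sperm, those of the ssq family lay close to the msp genes. ssq-1 had log2 ratios of 1.13, 0.95 and 2.73 and a mean of 1.61 ± 0.98, ssq-2 had 1.09, 1.15 and 2.35, and ssq-4 had 1.30, 0.62 and 2.16. The 4 ssq genes were higher, and ssr-2, the 1 ssr gene measured, was lower at −1.13 ± 0.26. With housekeeping centring, 2 of these 5 were higher and 1 lower. The phosphatase genes gsp-3 and gsp-4, which act in the motility of the sperm that major sperm protein drives, were higher as well. gsp-3 had 1.21, 0.28 and 1.56, and gsp-4 had 0.67, 0.41 and 1.78, with means of 1.02 ± 0.66 and 0.95 ± 0.73 and limma adjusted p of 0.0111 and 0.0193. Both had the array order of most msp genes. These were the 2 measured of 8 listed partners of the filament system, and without array 1 or without array 3, 1 of them was higher. With housekeeping centring 0 were.

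Genes known from mutants with defective sperm were called in either direction at a share near the background, but more were higher than lower. Of 24 measured spe and fer genes, 7 passed as higher and 1 as lower (33.3% called, against 38.4% of all features, 19.6% higher and 18.8% lower). With housekeeping centring 1 was higher and 12 lower. Their median was 0.25, against 0.04 over all genes, and by array 0.22, 0.28 and 0.39. Without array 3, 3 were higher. The farthest from 0 were spe-27, which acts in sperm activation, at −1.85 ± 0.46, spe-39 at 1.44 ± 0.13 and spe-18 at 1.05 ± 0.91. Of 12 genes listed for sperm fate and sperm transcription, not all of them specific to sperm, 8 were higher and 1 lower, with array medians of 1.03, 0.86 and 1.00. With housekeeping centring these counts were 3 and 2. The 3 that did not pass were fog-2, htas-1 and fog-3, at 0.55 ± 0.47, 0.48 ± 0.44 and 0.07 ± 0.02. gld-1, rnp-8 and cpb-1, which encode RNA regulators of the germline, led at 2.26 ± 0.05, 2.13 ± 0.23 and 1.48 ± 0.33. The 1 that was lower, elt-1, lay at −0.79 ± 0.03; its GATA factor is known to act on msp genes and in the epidermis. Of 17 genes of the other nematode-specific peptide families (nspa, nspb and nspc), 1 was higher and 3 lower, or 0 and 16 with housekeeping centring, with array medians of −0.04, −0.28 and 0.02. The farthest were nspc-20, nspc-13 and nspc-9, at −3.03 ± 0.78, −1.95 ± 0.39 and −1.88 ± 0.20. The 1 that was higher, nspb-10 at 0.45 ± 0.06, did not pass when each array was centred on its median or without array 2 or 3.

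Of 20 genes of the response to major sperm protein in the oocyte and sheath, 8 were higher and 2 lower, but 1 was higher and 10 lower with housekeeping centring. The receptor gene vab-1, an Eph receptor that binds the protein on oocytes, had a mean of 0.81 ± 0.15. oma-1, which encodes an oocyte maturation protein, and ran-1 lay at 1.53 ± 0.09 and 1.19 ± 0.29, and ptp-2 at 1.09 ± 0.18. ceh-18, a transcription factor of the sheath, was lower at −1.0 ± 0.27, and unc-43, a kinase gene, lower at −0.71 ± 0.22. Without array 2, and without array 3, 1 of the 20 was lower. The spread between arrays in this list, with a median SD of 0.26, was below that of the msp genes and near that of all genes.

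Marker genes of other cells were measured beside the members. Among 16 genes of oocytes and the eggshell, 13 passed as higher and 1 as lower, at medians of 1.39, 1.26 and 1.37 on arrays 1, 2 and 3. With housekeeping centring, 7 were higher and 3 lower. The msp median was below the oocyte median on arrays 1 and 2, by 0.30 and 0.67, and above it by 0.43 on array 3. The order of the msp and oocyte medians thus depends on the array. The 3 farthest from 0, cpg-1, cbd-1 and rme-2, lay at 2.48 ± 0.20, 2.46 ± 0.12 and 2.32 ± 0.28. The 1 that was lower, cav-1, lay at −0.92 ± 0.23, and egg-1 and cpg-2 did not pass, at −0.31 ± 0.15 and −0.03 ± 0.15. Of 9 male marker genes, 0 were higher and 2 lower by limma, with array medians of 0.08, −0.08 and −0.19, and 1 was higher without array 1. With housekeeping centring 0 were higher and 7 lower, in a fit where 12104 of all 19264 features were lower. Of the 34 housekeeping genes, 22 were higher and 2 lower, and array 3 exceeded array 2 in all 34, at a median difference of 0.66. The count that was lower ran from 0 to 4 with an array left out. The msp median exceeded the housekeeping median by 0.11, 0.18 and 0.75 on the 3 arrays.

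**Figure D5:**
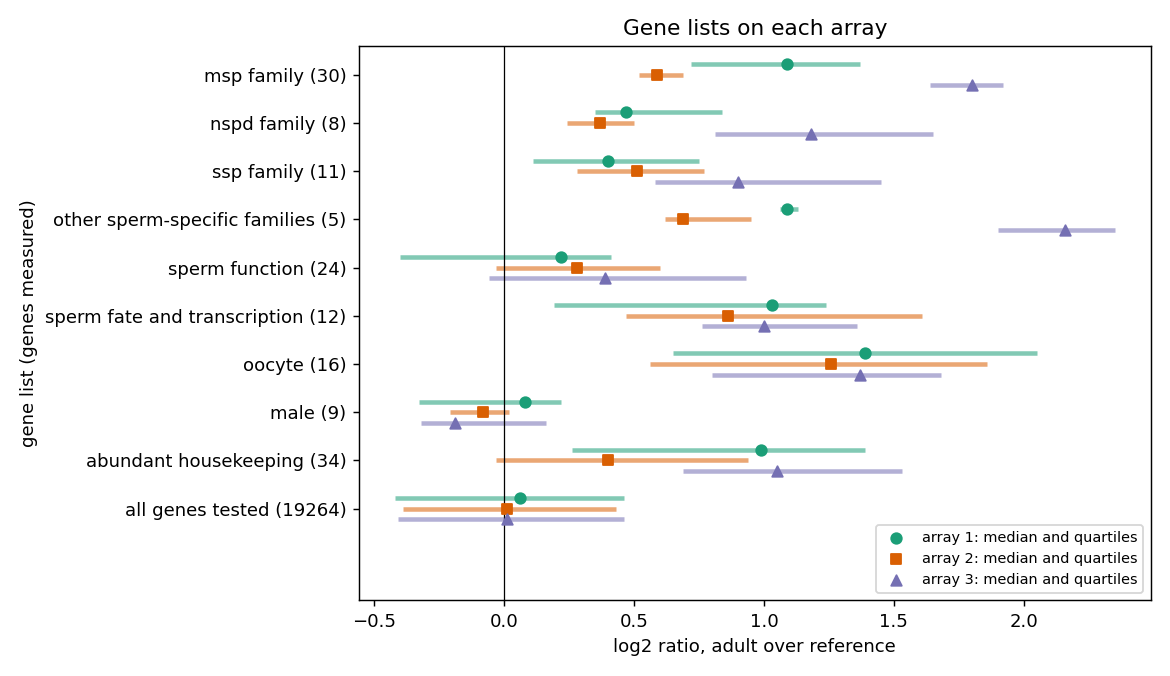
Median log2 ratio (points) and quartiles (bars) of gene lists on array 1 (circles), array 2 (squares) and array 3 (triangles), with the number of genes measured in brackets. The msp family moves from 0.59 on array 2 to 1.80 on array 3, while oocyte genes stay between 1.26 and 1.39.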

How the data were processed

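Per probe, the deposited values give a single number for each array, over 20000 probes. No label states their unit. They were taken as log2 ratios because 2 to the power of a deposited value came out as a multiple of 0.001 for 99.98% of values (tolerance 0.01 of a step) and for 3.35% once signs were reversed. The sources used here do not give the authors' background correction, normalization or filters, nor the direction of the ratio. No spot intensities were used, so faint spots cannot be told from bright ones, and the number of arrays limits the precision. Symbols came from the platform annotation, updated by gene identifier to RefSeq (WBcel235). A single symbol was found for 15655 probes, and 15081 genes with a symbol were measured on all 3 arrays. Probes of a symbol were averaged on each array.

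The mean ratio was compared with 0 by limma (version 3.58.1, R 4.3.3, lmFit and eBayes, two-sided; Benjamini-Hochberg over 19264 features; threshold 0.05), after a check on simulated data. The reference's own spread does not enter this test. Arrays correlated at r = 0.763 to 0.900 over all features. Members and lists were chosen with earlier results of these data known. Genes were named by rank within a family: every member of a small family, and in larger ones the highest, the lowest, those with the largest and smallest SD and those out of line with the family; of other lists, those farthest from 0. Alternatives covered centring, scale, quantile normalization, moderation, missing values, averaging of probes and leaving out each array. Sequences of these genes are not shown, as none were used here.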

Additional observations from a re-analysis of the deposited data

How the results depend on the processing

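No paired analysis was possible because the arrays form 1 group. With housekeeping centring, 3 of the 55 members were higher and 5 lower: 3 and 1 in msp, 0 and 1 in nspd, and 0 and 3 in ssp, sss and msd together. Of all 19264 features, 588 were higher and 12104 lower in that fit. The msp medians became 0.11, 0.18 and 0.75 on arrays 1, 2 and 3 and 0.33 for the mean. The nspd medians became −0.51, −0.03 and 0.14 on arrays 1, 2 and 3 and −0.16 for the mean, those of ssp −0.59, 0.11, −0.15 and −0.25, and those of msd −0.84, −0.04, 0.12 and −0.21. For sss they became −0.25, −0.45, 0.27 and −0.14. With this centring, 17 members changed sign. Of these, 7 passed in neither fit (msp-49, nspd-2, ssp-31, ssp-32, ssp-36, ssp-37 and sss-2, now −0.50 to −0.25). The other 10 moved as follows, msp-45 to −0.03, nspd-1 to −0.09, nspd-3 to −0.24, nspd-4 to −0.28, nspd-9 to −0.73, ssp-9 to −0.05, ssp-10 to −0.71, ssp-11 to −0.32, ssp-34 to −0.01 and sss-1 to −0.03. Without moderation, a test with the 3 values of a gene alone, 0 members were higher, with 0 in each family. The smallest adjusted p of a member was 0.0844 by this one-sample test, and 8 of the 55 had an unadjusted p under 0.05. Of all 19264 features, 0 passed in either direction in the same test, and 6188 had an unadjusted p under 0.05. Also without moderation, 0 members lay below the msp median, with 4 at an unadjusted p under 0.05. Robust moderation left 3 below the msp median. With 1 array left out, 29 to 44 of the 55 members were higher, 23 to 29 of msp, 2 to 6 of nspd and 4 to 10 of ssp, sss and msd, each lowest without array 3. Of all 19264 features, 4274, 3036 and 2676 were higher without arrays 1, 2 and 3, so the count over all features was lowest without array 3 too. The members below the msp median numbered 0 to 10 with 1 array left out. Median centring, equal spread and the fit with values on at least 2 arrays each lost msp-81, nspd-1 and sss-1. Quantile normalization and robust moderation changed no member's call against the reference. Nor did the fit of each probe by itself, where a gene counted as called only if all its probes passed. In that fit the first probe of ssp-37 passed and the second did not. The causes were not tested.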

Other observations

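The 20 named genes outside the families whose log2 ratios lay nearest to the msp medians of the 3 arrays (Euclidean distance over 3 values) were looked up after the values were seen. K06A5.2, R10E9.2, ZK938.1 and F27C1.1 came first, at distances of 0.12 to 0.14, and are known by sequence name. The sperm-specific family gene ssq-3 followed, with 1.06, 0.69 and 1.90, and gipc-2 and smz-1 were further down, at distances of 0.24 each. The 20 also held genes of other tissues and of abundant housekeeping RNA. Among them were the intestinal actin gene act-5 with 1.25, 0.64 and 1.86, the elongation factor gene eef-1A.2 with 1.02, 0.64 and 1.64, the basement membrane collagen gene let-2 with 1.16, 0.58 and 1.56, the collagen gene col-133 with 0.91, 0.62 and 1.77 and the ribosomal protein gene rpl-4 with 1.25, 0.52 and 1.55. The pattern of array 2 lowest and array 3 highest was thus not confined to sperm genes in these arrays.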
